A study of Mus musculus with 16 samples.

Results

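Aminoacyl-tRNA synthetases are the enzymes that join each amino acid to its tRNA. They were chosen by gene name, as the single-letter amino acid code followed by "ars", together with Farsa, Farsb, Eprs and Ears2. This gave 37 of the 17883 genes in the deposited expression matrix. Names ending in 2 mark the 17 enzymes of mitochondria, and the other 20 work in the cytosol. Lars2, the mitochondrial leucyl-tRNA synthetase, is one of the 17 and was described alone because its values were far above those of all other members.

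The libraries came from adipose tissue of C57BL/6 mice aged 8 weeks, in 8 groups of 2 libraries. Mice labelled cKO cold carried METTL3 flox/flox with Adipoq-Cre +/-, a Cre that acts in adipocytes, so that other cells of the tissue keep the gene, and spent 7 days at 4 °C in single cages. Mice labelled WT cold had the same cold exposure and carried METTL3 flox/flox without Cre. Mice labelled WT RT carried METTL3 flox/flox without Cre and were untreated, at room temperature. Each of these 3 conditions has anti-m6A precipitates (m6A is N6-methyladenosine, a mark on mRNA) beside total RNA, called input, and the cKO cold and WT cold conditions also have ribosome footprints, fragments of mRNA protected by ribosomes. METTL3 is the subunit that does the chemistry in the m6A writer complex of mRNA, and the series asks how it acts in the browning of white fat in the cold. Whether replicates are separate animals is not stated in the labels, and p-values therefore measure only the spread between libraries. Library codes of WT RT samples belong to a different series from those of the cold samples, and cold and code series therefore cannot be told apart.

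Each enzyme charges its tRNAs at the cost of ATP, and the cytosolic set feeds the ribosome through the elongation factors. In mammals, Dars, Eprs, Iars, Kars, Lars, Mars, Qars and Rars sit in the multi-synthetase complex, held by the scaffold proteins Aimp1, Aimp2 and Eef1e1. Gars and Kars serve cytosol and mitochondria from a single gene each, and mitochondria have no glutaminyl-tRNA synthetase: Ears2 loads glutamate, and an amidotransferase made of Qrsl1, Gatb and Gatc turns it into glutamine. The mitochondrial set serves only the proteins encoded by mitochondrial DNA, which are parts of the respiratory chain that beige fat uses to make heat. Many cytosolic synthetase genes are known targets of ATF4, the transcription factor of the amino acid response, which binds a composite element of the letters TGATGNAA.

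Promoter sequences bear on that last point. RefSeq promoter windows (GRCm38.p6, from 250 bases before to 50 after a start site) were found for 27 members, 13 cytosolic and 14 mitochondrial. Windows were not found for the other 10, Vars among them. The letters TGATGNAA, searched on both strands, lay in the windows of 5 of the 13 cytosolic members (38.5%) and of 0 of the 14 mitochondrial members, against 4.51% of all 27025 genes with a window. The stretches below are shown because they hold 1 match in each of these 5 genes (Aars has another, not shown), and the RNA of the genes can be set beside it further on. They are written 5′ to 3′ on the strand of the gene, with the match in capitals. The match lies on the opposite strand in all but Yars.
Aars, chr8:111033840-111033869, plus strand: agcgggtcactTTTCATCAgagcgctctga
Gars, chr6:55037960-55037989, plus strand: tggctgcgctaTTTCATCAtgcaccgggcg
Iars, chr13:49682126-49682155, plus strand: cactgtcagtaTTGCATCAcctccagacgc
Tars, chr15:11399655-11399684, minus strand: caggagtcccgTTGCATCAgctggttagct
Yars, chr4:129189895-129189924, plus strand: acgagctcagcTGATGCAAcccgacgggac
The Gars and Tars matches begin 30 and 15 bases before the start site. The other 3 matches shown begin 3 to 9 bases after it. The E-box letters CACGTG were in 4 of the 13 cytosolic windows (Aars, Farsb, Iars, Tars) and in 1 of the 14 mitochondrial ones (Ears2), against 8.09% of all genes. A match is only a description of these letters, not a bound site.

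The deposited values are RPKM (reads scaled to gene length and to library size), from which whole reads could be recovered. They numbered 4883129 to 6426541 per m6A library, at least 1676208 to 2461267 per footprint library, and 3895031 to 8673393 per input. Behind the 36 members without Lars2 stood 5 to 958, at least 7 to 884, and 11 to 1419 reads per gene and library in m6A, footprint and input libraries. All 8 adipocyte markers, Adipoq among them, were detected in every input and footprint library. Mettl3 was at 3.83 and 1.90 RPKM in cKO cold, 5.24 and 3.66 in WT cold, and 10.8 and 9.27 in WT RT inputs, and at 8.99 and 5.22 in cKO cold footprints against 4.60 and 4.82 in WT cold footprints. The inputs labelled cKO cold and WT cold thus overlap for the targeted gene, and footprints of the libraries labelled cKO cold lie above those labelled WT cold. A value per gene does not show the deleted exons, and directions for the knockout rest on the labels. Ucp1, the uncoupling protein of beige fat, separated the labels in both kinds of library, at 76.3 and 10.04 RPKM in cKO cold against 854 and 639 in WT cold inputs, and at 149 and 88.4 against 3795 and 2493 in footprints. Cell type markers also differed. The 9 markers of T and B cells summed to 7.67 and 5.16 RPKM in cKO cold, 0.858 and 1.30 in WT cold and 685 and 643 in WT RT inputs, with Cd79a at 0 in both WT cold inputs. In footprints the same 9 genes summed to 939 and 325 RPKM in cKO cold and 440 and 324 in WT cold, and 0 of them were at 0, so footprints and inputs of a condition differ in lymphocyte RNA. Single libraries stood apart in the sum of 5 skeletal muscle markers, at 2.57 and 127.9 RPKM in cKO cold, 0.737 and 7.68 in WT cold and 240.5 and 7.34 in WT RT inputs, and at 222.8 and 4.10 in cKO cold and 5.90 and 5.28 in WT cold footprints. In cKO cold the high library was replicate 2 in input and m6A and replicate 1 in footprints.

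Input RNA of the synthetases was moderately abundant in all 3 conditions. The median cytosolic member stood at 18.1 and 19.5 RPKM in cKO cold, 17.6 and 14.1 in WT cold, and 17.8 and 17.1 in WT RT inputs. The median of the 16 mitochondrial members without Lars2 was 4.86 and 5.01, 5.07 and 4.85, and 6.73 and 6.03 RPKM in the same order, and the median gene of the matrix was at 3.99 and 3.78, 2.60 and 2.25, and 5.38 and 5.16. The cytosolic list therefore lay above the median gene in each of the 6 inputs. In WT cold the most abundant cytosolic RNAs were Gars (53.0 and 43.6 RPKM; glycyl), Eprs (28.8 and 31.5; the fused glutamyl and prolyl enzyme) and Sars (28.7 and 31.6; seryl), and Eprs and Sars did not differ beyond their spread. At the other end, Mars2 (methionyl) and Pars2 (prolyl) were near 1 RPKM, at 1.10 and 1.03 and at 1.40 and 0.811 in WT cold.

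**Figure D1:**
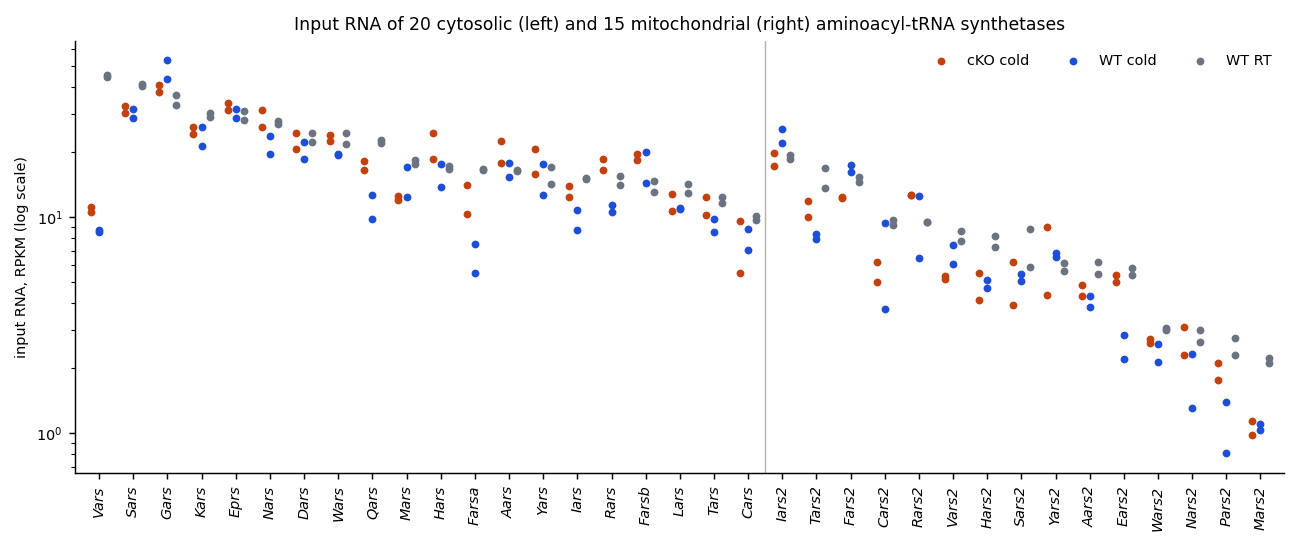
Input RNA of 35 members without Lars2, in RPKM on a log axis, with 1 point per library (cKO cold, WT cold, WT RT) and genes ordered by their mean in WT RT within the cytosolic (left) and mitochondrial (right) lists. Vars lies at 44.3 and 45.2 RPKM in WT RT and between 8.50 and 11.1 in the 4 cold libraries.

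The RNA of Vars, the cytosolic valyl-tRNA synthetase (chr17:35000907-35016329, GRCm38.p6), showed the largest difference among the members. Its input level was 10.6 and 11.1 RPKM in cKO cold, 8.50 and 8.68 in WT cold, and 44.3 and 45.2 in WT RT. The cold libraries lay far below the room temperature libraries, with no overlap, and cKO cold lay a little above WT cold. The log2 difference on the log2(RPKM + 1) scale was -2.25 ± 0.14 (SE) for WT cold over WT RT (limma, adjusted p = 8.43e-05) and -1.95 ± 0.14 for cKO cold over WT RT (adjusted p = 0.000263), with n = 2 libraries per group. For cKO cold over WT cold it was 0.31 ± 0.14, which did not pass the threshold (adjusted p = 0.136). The m6A libraries gave the same order for Vars, with 11.6 and 13.4 RPKM in cKO cold, 10.1 and 9.06 in WT cold, and 37.6 and 36.5 in WT RT. For WT cold over WT RT, Vars kept a negative difference under all 14 alternatives run, between -2.38 and -1.55, with a largest adjusted p of 0.00207. Vars2, its mitochondrial counterpart, was at 5.36 and 5.16 RPKM in cKO cold, 6.04 and 7.41 in WT cold and 8.66 and 7.78 in WT RT, and was not called in any comparison of inputs.

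Of all genes tested between WT cold and WT RT inputs, 6.52% were called higher and 51.2% lower (limma, adjusted p under 0.05), and the median gene lay at -0.67. In this comparison all 37 members passed the filter on low values, 2 were called higher and 9 lower, fewer in the lower direction than the background share. The 20 cytosolic members had a median of -0.29, with 1 higher and 5 lower, and the 16 mitochondrial members a median of -0.42, with 0 higher and 4 lower. A total of 31 of the 37 members lay above the median gene, so the direction of many depends on the scaling. With libraries scaled by median ratios, 11 members were higher and 1 lower, where 2376 and 2592 of all 12667 genes were. With quantile scaling 12 members were higher and 1 lower, where 2644 and 2350 of all genes were. The one called lower under both was Vars.

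Besides Vars, 4 of the called members were negative under each of the 14 alternatives, but the 4 lost the call under both median-ratio and quantile scaling. Farsa, the catalytic alpha subunit of the phenylalanyl enzyme, was at 7.51 and 5.53 RPKM in WT cold and at 16.6 and 16.5 in WT RT, a log2 difference of -1.24 ± 0.21 (adjusted p = 0.00322). Its partner subunit Farsb was at 19.9 and 14.3 RPKM in WT cold and 14.7 and 13.0 in WT RT, overlapping and not called. Qars (glutaminyl, in the multi-synthetase complex) was at 12.6 and 9.78 RPKM in WT cold and 21.9 and 22.8 in WT RT, a log2 difference of -0.94 ± 0.17 (adjusted p = 0.00366). Farsa and Qars thus separated WT cold from WT RT and Farsb did not, and the difference between the subunits was not tested. Ears2 was at 2.20 and 2.85 RPKM in WT cold and 5.43 and 5.81 in WT RT (-0.91 ± 0.20). Tars2, the mitochondrial threonyl enzyme, was at 8.36 and 7.95 RPKM in WT cold and 16.8 and 13.6 in WT RT (-0.82 ± 0.18). Their adjusted p-values were 0.00837 and 0.00846, and neither gene's groups overlapped. The differences nearest 0 over the alternatives were -0.47 for Farsa, -0.24 for Qars, -0.05 for Ears2 and -0.06 for Tars2. Ears2 also lost the call without WT RT replicate 1 or 2, and Tars2 without WT RT replicate 1. The last 4 members called lower were Sars (-0.42), Iars (-0.59; isoleucyl), Mars2 (-0.61) and Pars2 (-0.76), and each turned positive under quantile scaling, Sars and Iars also under median ratios. Gars was called higher, at 53.0 and 43.6 RPKM in WT cold against 33.0 and 36.6 in WT RT (0.46 ± 0.15; adjusted p = 0.0335), and kept that sign under the 14 alternatives while losing the call in 3. In bulk tissue, fewer cells of a type and less RNA per cell cannot be told apart. The T and B cell markers were called lower in WT cold for 9 of 9 genes and the macrophage markers for 6 of 9, with macrophage sums of 187 and 172 RPKM in WT cold and 734 and 793 in WT RT. Their part in the synthetase differences was not tested.

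Between cKO cold and WT cold inputs the background was 23.6% of genes called higher and 2.92% lower, with the median gene at 0.40. Among the 37 members 4 were called higher and 0 lower, a share below the background. Ears2 stood at 5.42 and 5.02 RPKM in cKO cold and 2.20 and 2.85 in WT cold (0.82 ± 0.20; adjusted p = 0.0283). Farsa stood at 10.3 and 14.1 RPKM in cKO cold and 7.51 and 5.53 in WT cold (0.81 ± 0.21; adjusted p = 0.0348). For both genes the cKO cold libraries lay above the WT cold libraries, without overlap. Rars, the arginyl enzyme of the complex, was at 18.6 and 16.4 RPKM in cKO cold and 10.6 and 11.4 in WT cold (0.63 ± 0.16; adjusted p = 0.0286). Qars was at 16.5 and 18.2 RPKM in cKO cold and 12.6 and 9.78 in WT cold (0.59 ± 0.17; adjusted p = 0.0429), and was not called with the replicate number as a block (adjusted p = 0.059). These 4 genes were positive under all 14 alternatives but lost the call in 9 to 11 of them. With median-ratio scaling 0 members were called higher and 4 lower, among them Fars2, Gars and Iars2, where 756 and 852 of all 12667 genes were. With quantile scaling 0 members were higher and 4 lower, among them Fars2, Iars2 and Vars2, where 750 and 637 of all genes were. Without WT RT replicate 1 or 2, which enter only the shared spread, 0 members were called.

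The cytosolic and mitochondrial lists differed in their middle in the knockout comparison. The cytosolic median was 0.25, with 17 of 20 members positive, and the mitochondrial median without Lars2 was -0.02, with 7 of 16 positive, against 0.40 for all genes. The signs depend on the scaling, and under median-ratio scaling 3 of 20 cytosolic and 3 of 16 mitochondrial members were positive, with medians of -0.22 and -0.36 against 0.02 for all genes. Among the smallest values was that of Fars2, the mitochondrial phenylalanyl enzyme. Fars2 was at 12.2 and 12.4 RPKM in cKO cold and 16.2 and 17.3 in WT cold (-0.41 ± 0.14; adjusted p = 0.0729). Its groups did not overlap, yet it did not pass the threshold. Macrophage markers were called higher in cKO cold for 8 of 9 genes, with sums of 1423 and 688 RPKM in cKO cold and 187 and 172 in WT cold, and fibroblast and preadipocyte markers for 7 of 7, with sums of 2247 and 1060 against 544 and 396. Their part in the synthetase values was not tested.

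The comparison of WT cold with WT RT and that of cKO cold with WT cold share the WT cold inputs, so opposite signs in them are not independent. Ears2, Farsa and Qars were called lower in the WT cold comparison and higher in the cKO cold comparison. For cKO cold over WT RT, whose differences do not use the WT cold values while the shared spread behind SE and p does, they were -0.09 ± 0.20, -0.43 ± 0.21 and -0.35 ± 0.17, and none was called (adjusted p = 0.759, 0.166 and 0.153). In that comparison 8.38% of genes were called higher and 24.7% lower, and 1 member was higher (Lars2) and 2 were lower (Vars and Mars2). Mars2 was at 0.981 and 1.14 RPKM in cKO cold and 2.23 and 2.11 in WT RT (-0.62 ± 0.20; adjusted p = 0.0486), and lost the call in 13 of 14 alternatives.

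**Figure D2:**
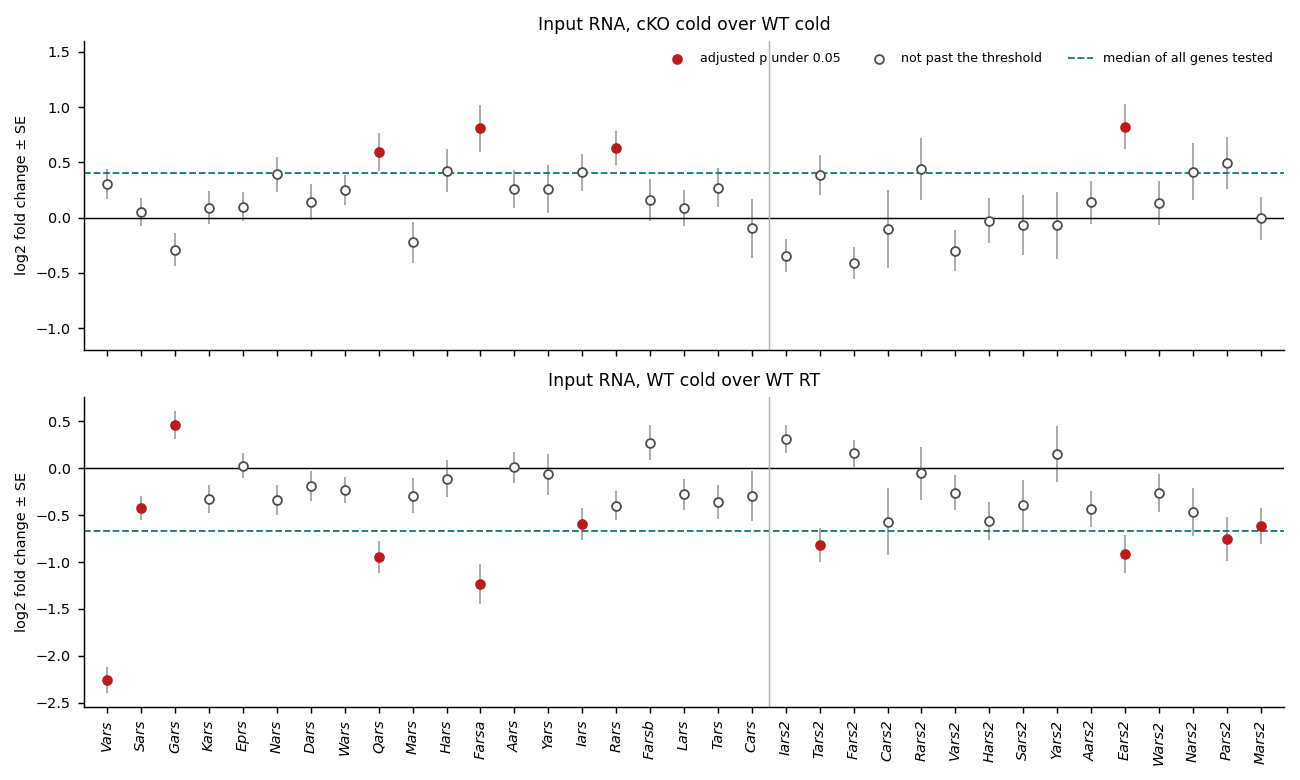
Log2 fold change ± SE of input RNA for 35 members without Lars2, cKO cold over WT cold (top) and WT cold over WT RT (bottom), with called members filled and the median of all genes dashed. Vars lies at -2.25 in the lower panel, and Ears2, Farsa, Rars and Qars are the called members of the upper panel.

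In the deposited values the members with TGATGNAA in the promoter window did not share a direction. For WT cold over WT RT the differences were 0.01 for Aars (alanyl), 0.46 for Gars, -0.59 for Iars, -0.36 for Tars (threonyl) and -0.07 for Yars (tyrosyl). The median gene lay at -0.67. Under both median-ratio and quantile scaling Aars, Gars and Yars were called higher, while Iars (0.10 and 0.139) and Tars were not called. For cKO cold over WT cold the 5 differences were 0.26, -0.29, 0.41, 0.27 and 0.26, against 0.40 for the median gene, and none was called. Median-ratio scaling called Gars lower there. The list of known ATF4 response genes had calls in both directions. In WT cold over WT RT 4 of 26 tested genes were called higher and 8 lower, where 6.52% and 51.2% of all genes were. Under median-ratio scaling 9 were higher and 3 lower, where 2376 and 2592 of all 12667 genes were. Under quantile scaling 7 were higher and 3 lower, where 2644 and 2350 of all genes were. Asns, which makes asparagine, was at 35.3 and 31.3 RPKM in WT cold and 15.1 and 13.9 in WT RT (1.15 ± 0.20) and was called higher. Slc7a5, a carrier of large neutral amino acids, fell by 2.24 ± 0.27, and Shmt2, of mitochondrial serine use, fell by 1.66 ± 0.20. Under median-ratio scaling 0 were higher and 3 lower in cKO cold over WT cold, where 756 and 852 of all 12667 genes were. In the deposited values of that comparison 5 were higher and 1 lower, against 23.6% and 2.92% of all genes. Among the 6 were the serine synthesis genes Phgdh (0.89 ± 0.12) and Psat1 (0.93 ± 0.15) and, as the one lower, the stress hormone gene Fgf21, at 0.699 and 0.270 RPKM in cKO cold against 1.70 and 4.01 in WT cold. Atf4 itself was at 49.3 and 56.1 RPKM in cKO cold, 48.2 and 48.5 in WT cold and 55.3 and 51.2 in WT RT.

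Genes that work beside the synthetases were counted in the same fits, where 51.2% of all genes were lower and 6.52% higher in cold; the lower calls of the first 2 lists stayed below that share. Of 14 synthetase partners and quality control genes tested, 1 was higher and 3 were lower in WT cold over WT RT: Sephs2 (selenophosphate synthesis) rose by 0.65, and Eefsec (the selenocysteine elongation factor), Dtd1 (which clears D-amino acids from tRNA) and Aimp1 fell by 1.08, 0.88 and 0.68. Of 19 mitochondrial tRNA and translation partners, 2 were higher (Gfm1, the mitochondrial elongation factor G, at 1.24 ± 0.16, and Tufm, its EF-Tu, at 0.38 ± 0.12) and 4 lower (Gtpbp3, Mtfmt, Pus1 and Trnt1). With median-ratio scaling 4 of 14 and 8 of 19 genes were higher, with quantile scaling 8 of 14 and 9 of 19, and 0 genes of either list were lower under these 2 scalings. Of all 12667 genes 2376 were higher and 2592 lower with median ratios, and 2644 higher and 2350 lower with quantile scaling. In cKO cold over WT cold 23.6% of all genes were higher and 2.92% lower. There Gatc was higher, and Gfm1, Mto1 and Trit1 were lower, at -0.52, -1.03 and -0.83. Median-ratio scaling gave 0 higher and 4 lower among the 19, and 756 higher and 852 lower among all 12667 genes. Of 6 cytosolic elongation factors, 5 were lower for WT cold over WT RT and 5 were higher for cKO cold over WT cold, while median-ratio scaling left 3 lower and 1 higher for cold and 1 higher for the knockout. Their medians were -1.18 and 0.69, further out than the cytosolic synthetases at -0.29 and 0.25.

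The m6A libraries held less synthetase RNA than the inputs for most members. Called lower in m6A over input were 20 of 37 members in cKO cold, 13 in WT cold and 20 in WT RT, and 2 were called higher in each. Across all genes 35.2%, 25.6% and 34.6% were lower in these conditions and 11.4%, 13.7% and 16% higher, with median genes at -0.30, -0.11 and -0.25. A total of 12 members were lower in all 3 conditions: Dars, Farsb, Gars, Iars, Iars2, Lars, Mars, Qars, Rars, Rars2, Wars and Yars2. Genes lower in all 3 conditions were not counted over the whole matrix, so this number has no background share. Of the 8 members of the multi-synthetase complex, 6 were lower in cKO cold, 6 in WT cold and 8 in WT RT, with medians of -0.85, -0.79 and -1.24, against -0.30, -0.13 and -0.39 for the other 12 cytosolic members. RPKM are shares of the reads, and Lars2 took a larger share of m6A than of input reads, as given below. With m6A and input libraries scaled together outside Lars2, Gm20594 and the mRNAs of mitochondrial DNA, 12, 10 and 14 members were lower and 5, 6 and 4 higher. Under this scaling 2848, 2311 and 3241 of all 13062 genes were lower and 2628, 2828 and 3043 higher. The members lower in all 3 conditions were then 8 (Dars, Farsb, Iars, Iars2, Rars, Rars2, Wars and Yars2), again without a count over all genes.

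Farsb was the cytosolic member with the lowest ratio. It had 4.95 and 6.94 RPKM in m6A and 19.6 and 18.4 in input of cKO cold, 4.37 and 5.20 against 19.9 and 14.3 in WT cold, and 4.29 and 2.62 against 14.7 and 13.0 in WT RT. The log2 ratios were -1.54 ± 0.23, -1.64 ± 0.23 and -1.76 ± 0.23 (limma, adjusted p = 0.00042, 0.000371 and 0.000168). Every m6A library was below both inputs of its condition. Dars, the aspartyl enzyme of the complex, had ratios of -1.23 ± 0.14, -1.30 ± 0.14 and -1.44 ± 0.14, from 8.81 and 9.27, 7.34 and 8.01, and 7.63 and 8.38 RPKM in m6A. Among the mitochondrial members Rars2 (arginyl) had ratios of -1.92 ± 0.31, -1.31 ± 0.31 and -2.26 ± 0.31, and Yars2 (tyrosyl) -2.13 ± 0.26, -1.47 ± 0.26 and -1.02 ± 0.26. Yars2 in m6A of cKO cold rests on few reads, at 0.753 and 0.599 RPKM.

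Sars was called higher in m6A in both cold conditions. With the libraries scaled as they were deposited, Lars2 was the other member so called, and with m6A and input libraries scaled together Cars, Nars and Vars were too. It had 45.2 and 48.7 RPKM in m6A and 30.2 and 32.5 in input of cKO cold, 43.5 and 52.0 against 28.7 and 31.6 in WT cold, and 49.0 and 46.9 against 41.2 and 40.3 in WT RT. Its ratios were 0.57 ± 0.12 (limma, adjusted p = 0.00375), 0.64 ± 0.12 (0.00237) and 0.23 ± 0.12, where the last was not called (0.148). The WT RT ratio of Sars passed with libraries of a condition and number paired as blocks (0.0344). It was also called higher with m6A and input libraries scaled together. In each condition both m6A libraries lay above both inputs. Pars2 was called higher in WT RT, at 5.62 and 6.12 RPKM in m6A against 2.75 and 2.31 in input (0.96 ± 0.21), and not in cKO cold (-0.26 ± 0.21) or WT cold (0.42 ± 0.21), though the joint scaling called it in WT cold.

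A change of m6A over input between conditions was called for 0 members, for cKO cold over WT cold and for WT cold over WT RT (limma interaction terms). The background was 0% of 13062 genes for the knockout, where 1311 genes had an unadjusted p under 0.05, and 0.0612% for cold, where 1486 did. With libraries of a condition and number paired as blocks, 405 genes were called for the knockout (8 higher, 397 lower) and 270 for cold (222 higher, 48 lower), with 0 members among the first and Lars2 among the second. Unadjusted, 2 members (Ears2 and Pars2) were under 0.05 for the knockout and 8 for cold. The largest knockout difference was that of Ears2, with a ratio of -0.98 ± 0.18 in cKO cold and -0.23 ± 0.18 in WT cold, a difference of -0.75 ± 0.26 (adjusted p = 0.337). The largest positive cold differences were 0.96 ± 0.44 for Rars2 and 0.69 ± 0.21 for Nars (asparaginyl), with adjusted p = 0.448 and 0.268. These misses do not show that the ratios were equal.

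**Figure D3:**
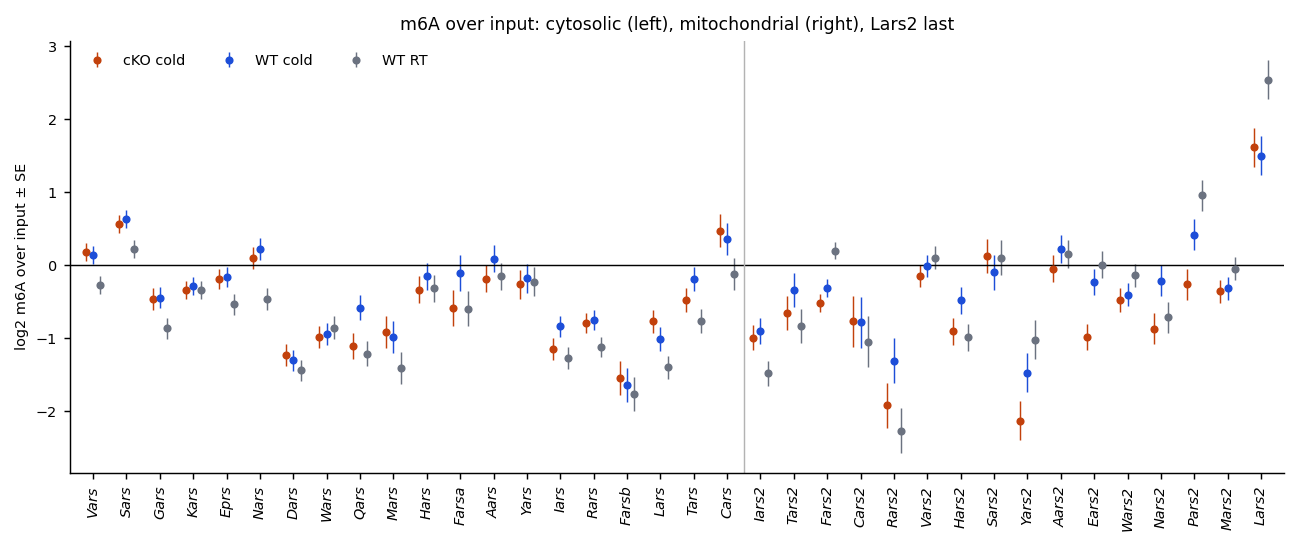
Log2 ratio ± SE of m6A over input for 36 members in cKO cold, WT cold and WT RT, cytosolic to the left, mitochondrial to the right and Lars2 last. Most members lie below 0, Farsb at -1.54, -1.64 and -1.76, and Lars2 lies above 0 at 1.62, 1.50 and 2.54.

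Lars2 (chr9:123366927-123462675, GRCm38.p6) stood apart from all other members. In m6A libraries it had 71270 and 66120 RPKM in cKO cold, 64850 and 62310 in WT cold, and 38920 and 39560 in WT RT. In inputs it had 22890 and 21880 RPKM in cKO cold, 19880 and 25350 in WT cold, and 5845 and 7756 in WT RT. The cold libraries lay above the room temperature libraries in both kinds, and cKO cold and WT cold inputs overlapped. As a share of all reads this was 27.8% and 25.8% in cKO cold, 25.3% and 24.3% in WT cold and 15.2% and 15.4% in WT RT for m6A, and 8.92% and 8.52%, 7.74% and 9.87%, and 2.28% and 3.02% for input. Lars2 was the gene with the highest RPKM in all 6 m6A libraries and ranked 1 to 6 in the inputs. Footprints told otherwise: Lars2 had 8.50 and 11.6 RPKM in cKO cold and 13.3 and 8.14 in WT cold, from at least 50 and 83 and at least 90 and 42 reads, at ranks 5265 to 7687. The mean input value was 2.23e+03 times the mean footprint value in cKO cold and 2.11e+03 times in WT cold, and 0 of the genes compared had a lower footprint-to-input ratio in either condition. Input and footprint RPKM need not share a length scale, and a value per gene does not show on which bases of the gene the reads lie.

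Lars2 input was higher in WT cold than in WT RT by 1.74 ± 0.27 (limma, adjusted p = 0.00197) and in cKO cold than in WT RT by 1.73 ± 0.27 (adjusted p = 0.00414). Under quantile scaling the WT cold difference was 0.60 and no longer called (adjusted p = 0.0985). Between cKO cold and WT cold the input difference was 0.00 ± 0.27 and the footprint difference -0.06 ± 0.30, neither called. The m6A ratio was 1.62 ± 0.27 in cKO cold, 1.50 ± 0.27 in WT cold and 2.54 ± 0.27 in WT RT, called in each (adjusted p = 0.000725, 0.00143 and 4.54e-05). The WT cold ratio lay below the WT RT ratio with a log2 difference of -1.04 ± 0.37, which did not pass without pairing (adjusted p = 0.323) and passed with libraries of a condition and number paired as blocks (adjusted p = 0.0416). The mRNAs of mitochondrial DNA moved differently across the conditions, at 6.22% and 6.62% of input reads in cKO cold, 15.1% and 13.7% in WT cold, and 5.78% and 5.93% in WT RT. By Pearson's r of log2(RPKM + 1) over the 12 m6A and input libraries, the most similar of 5280 genes were Bag3 (0.934), Arxes1 (0.923), C130074G19Rik (0.922), Atp5k (0.921) and Palmd (0.919). These r describe libraries that fall into 2 kinds and 3 conditions, and carry no test.

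**Figure D4:**
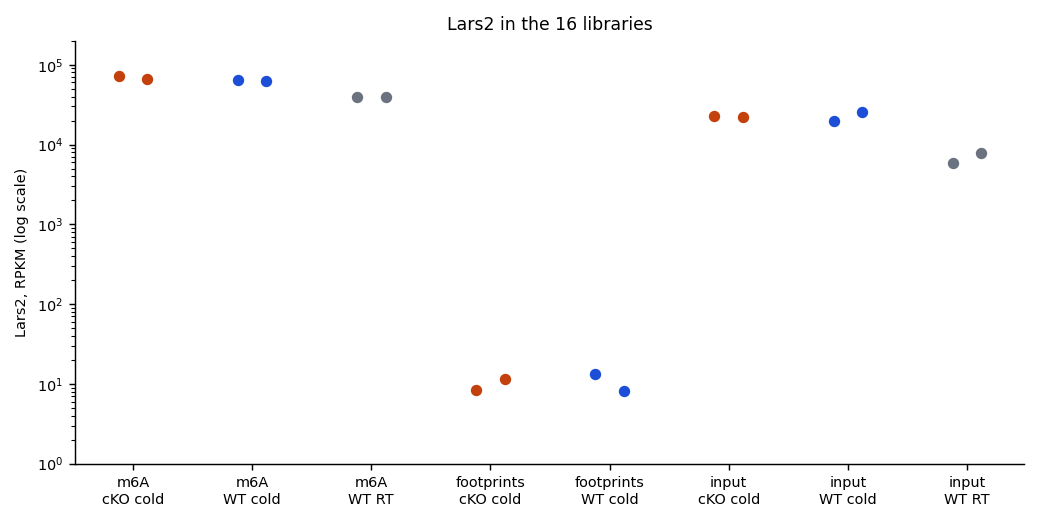
Lars2 in the 16 libraries, in RPKM on a log axis, with 1 point per library. The m6A libraries lie between 38920 and 71270, the inputs between 5845 and 25350, and the footprints between 8.14 and 13.3.

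Footprints on the synthetase mRNAs were compared between the libraries labelled cKO cold and WT cold. Of 12763 genes tested 5.61% were called higher and 1.54% lower, and 0 of the 37 members passed (limma), with 7 members under an unadjusted p of 0.05. The cytosolic median was 0.38, with 19 of 20 members positive, and the mitochondrial median without Lars2 was -0.13, with 4 of 16 positive, against 0.42 for the median gene. Under median-ratio scaling 7 of 20 cytosolic and 2 of 16 mitochondrial members were positive, with medians of -0.09 and -0.58 against 0.02. The largest value was that of Vars, with 26.8 and 21.9 RPKM in cKO cold and 17.8 and 9.41 in WT cold (0.85 ± 0.31; adjusted p = 0.11). It was followed by Ears2, with 4.40 and 8.44 RPKM in cKO cold and 4.59 and 2.34 in WT cold, overlapping (0.72 ± 0.38; adjusted p = 0.227). The lowest was Fars2, with 21.8 and 35.8 RPKM in cKO cold and 45.8 and 46.9 in WT cold (-0.71 ± 0.26; adjusted p = 0.115), and then Cars2, the cysteinyl enzyme, at -0.51 ± 0.39. Gars was the 1 cytosolic member with a negative value, at 94.9 and 108 RPKM in cKO cold and 160 and 120 in WT cold (-0.45 ± 0.23; adjusted p = 0.221), and was called lower under median-ratio scaling. Macrophage markers summed to 8938 and 4774 RPKM in cKO cold footprints and 3287 and 3982 in WT cold. Their part in the footprint values was not tested.

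Footprints relative to input gave no called change. For cKO cold over WT cold 0 of 37 members and 0% of all genes passed (limma interaction term), while 459 genes and 1 member had an unadjusted p under 0.05. In the deposited values the ratio itself placed the cytosolic enzymes above the middle of the transcriptome. Footprint and input RPKM may use different lengths per gene, and footprints and inputs of a condition differ in lymphocyte RNA. The part of either in the ratio was not tested. The median log2 ratio of footprints to input was 1.26 in cKO cold and 1.25 in WT cold for the cytosolic list, 0.84 and 1.15 for the mitochondrial list without Lars2, and 0.64 and 0.62 for the median gene. Above the median gene were 20 of 20 cytosolic members in cKO cold and 17 of 20 in WT cold, and 10 and 12 of 16 mitochondrial members. Nars had the highest cytosolic ratio in both, at 2.37 and 2.22.

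**Figure D5:**
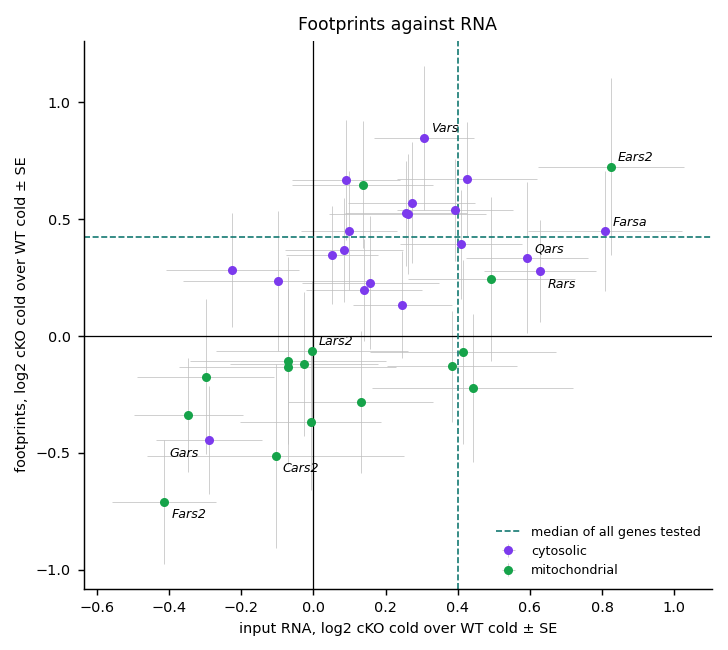
Log2 fold change ± SE of footprints against that of input RNA, cKO cold over WT cold, 1 point for each of 36 members, with dashed lines at the median of all genes. All cytosolic members but Gars lie above 0 on the footprint axis in these values (7 of 20 under median-ratio scaling), and 12 of the 15 mitochondrial members plotted beside Lars2 lie below it.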

How the data were processed

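Adipose tissue RNA was sequenced as m6A precipitates, ribosome footprints and total RNA (input) in 16 libraries. The authors deposited 1 matrix of RPKM values for 17883 genes. Per the submitters' processing notes, HISAT2 and mm10 were used; the counting tool and annotation are not given in the sources used here. Members and gene lists were chosen with earlier results of these data known. All value columns were used.

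The test was limma 3.58.1 (R 4.3.3; two-sided, trended eBayes) on log2(RPKM + 1). A gene entered a fit when 2 or more of its libraries reached 1 RPKM, and p-values were adjusted over all such genes by Benjamini-Hochberg, with a threshold of 0.05. The pseudocount of 1 RPKM understates fold changes of low genes. Inputs were fitted together, then inputs with m6A libraries, then cold inputs with footprints, with changes of a ratio as interaction terms. Simulated data were used to test the fit of WT cold over WT RT inputs only. Per comparison, called members and the largest and smallest differences are named in the text, except some items not reported here by name or shown in the plots, which stay in all counts and fits.

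Whole reads were recovered from the deposited RPKM for 100% of genes (tolerance 0.001 read plus 3e-08 of the reads); footprint reads are known up to a common factor. They served for depth and for an alternative fit (limma voom). Positions, chromosomes and promoters are from RefSeq GRCm38.p6, matched by symbol.

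Replicate numbers were checked for pairing over 8464 genes. Deviations from group means correlated at 0.305 to 0.656 between kinds of library of the same condition and number, and at -0.099 to 0.078 between conditions. Equal numbers were therefore treated as pairs inside a condition in the block fits of m6A or footprints over input. The main fits left the pairing out. It rests on the data's evidence alone, since the labels do not state it. In cKO cold the muscle markers of footprints do not follow the pairing. Other settings tried were a pseudocount of 0.1, no filter, 4 scalings, blocks and leaving out each library.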

Additional observations from a re-analysis of the deposited data

How the results depend on the processing

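Counts of called members depended most on scaling and on single libraries. Leaving out 1 library at a time, the count ranged from 4 to 12 for WT cold over WT RT inputs (4 without WT RT replicate 1, 5 without replicate 2), from 0 to 3 for cKO cold over WT cold inputs (0 without WT RT replicate 1 or 2, and 1 without WT cold replicate 2 or without cKO cold replicate 1 or 2), from 2 to 6 for cKO cold over WT RT inputs (6 without WT cold replicate 1 or 2), and from 0 to 1 for footprints (Vars, without WT cold replicate 1). For cKO cold over WT cold inputs, 1 member was called with no filter on low values (Rars, higher), 1 with scaling outside Lars2, Gm20594 and mitochondrial DNA mRNAs (Fars2, lower), and 1 with the same scaling over m6A and input libraries together (Fars2, lower), which was added after seeing the data. Over all genes 2492 of 17178, 2395 of 12667 and 2404 of 12667 were called in these fits, in the same order. For cKO cold over WT RT inputs, 1 member was called with no filter and 6 with quantile scaling, where 3889 of 17178 and 4076 of 12667 genes were. In footprints, 1 member was called with median-ratio scaling (Gars, lower), where 477 of 12763 genes were. The cause was not tested.

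With the pairs as a replicate block, 1 member was called for the change of m6A over input between WT cold and WT RT (Lars2, -1.04), and the counts for m6A over input were 26 in cKO cold, 19 in WT cold and 25 in WT RT. The calls over all 13062 genes rose as well, to 7624, 6699 and 8080, from 6092, 5133 and 6612 in the main fits. Blocking the inputs by replicate number, which the pairing check does not bear out across conditions, gave 10, 3 and 2 members for WT cold over WT RT, cKO cold over WT cold and cKO cold over WT RT. Over all 12667 genes it gave 7266, 3191 and 4091 calls.

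For WT cold over WT RT inputs, log2 differences of some members called in the main or the scaled fit turned positive. Under quantile scaling these were Hars (0.563), Wars2 (0.630), Rars2 (0.720), Mars2 (0.271), Sars (0.027), Yars (0.626), Pars2 (0.128) and Iars (0.139). Under median-ratio scaling they were Hars (0.597), Sars (0.309), Yars (0.641), Wars (0.487) and Iars (0.10). Members called in neither fit are not listed, whatever their sign. With no filter, the m6A ratio of Lars2 was not called in either cold condition (adjusted p = 0.135 in cKO cold and 0.191 in WT cold). Depth limited the lowest members, with 5 reads behind the smallest m6A value.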

Other observations

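Gm20594, a predicted gene left out of some of the scalings beside Lars2, had the opposite pattern across the kinds of library. It had at least 77865 and 74212 reads in cKO cold footprints and at least 104012 and 169774 in WT cold footprints. In inputs it had 497 and 322 reads in cKO cold, 1830 and 1097 in WT cold, and 618 and 634 in WT RT. It thus took 3.88% and 3.01% of the footprint reads in cKO cold and 4.53% and 10.1% in WT cold, while Lars2 took at most 0.00392% in any footprint library. Its m6A libraries held 57 to 210 reads.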
